A study of Mus musculus with 2 samples.

Results

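Heat shock chaperones are proteins that bind unfolded or newly made proteins and help them to fold. Transcripts of 10 of them, out of 31054 genes counted, are described here in mouse liver cells: Hspa1a, Hspa1b, Hsph1, Hspa8, Hsp90aa1, Hsp90ab1, Dnajb1, Hspb1, Hspd1 and Hspe1. The 10 genes were selected on their ratio between the same 2 libraries that are compared below, so their ratios are a description and not a test. The libraries were compared within 3 classes of cells, set by marker genes: hepatic stellate cells (HSCs), the retinoid-storing mesenchymal cells that make scar collagen, sinusoidal endothelial cells, and Kupffer cells, the resident macrophages of the liver.

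HSP70 proteins hold exposed hydrophobic stretches of a client protein in a cycle driven by ATP. HSP40 proteins such as Dnajb1 deliver the client and start the cycle, and HSP110 proteins such as Hsph1 exchange the nucleotide that ends it. HSP90 proteins act later, on kinases, steroid receptors and other clients that are almost folded, small heat shock proteins hold clients without ATP, and HSP60 with its lid HSP10 folds proteins inside mitochondria. On heat or other damage to proteins, heat shock factor 1 binds arrays of the pentamer NGAAN in the promoters of many of these genes, and their transcription can rise within minutes. Dissociation of tissue is also known to raise some of them.

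HSCs were isolated from male mice on a C57BL/6 background by perfusion with pronase and collagenase, stirring in the warm enzyme solution and a density gradient, and were measured by single-cell RNA sequencing (scRNA-seq). Both groups received carbon tetrachloride (CCl4) for 4 weeks, which injures hepatocytes and scars the liver, together with tamoxifen and diphtheria toxin. The p16-Alb-LRTD mice carried 3 heterozygous alleles: the reporter R26-CAG-LSL-RSR-tdTomato-2A-DTR together with p16-CreERT2 and Alb-DreERT2. Cre is driven by the p16 locus and Dre by albumin in hepatocytes, and both are needed to switch on tdTomato and the diphtheria toxin receptor, so that hepatocytes with high p16 were the cells to be eliminated. The p16-LRTD mice lacked Alb-DreERT2 and served as the control. The paper reports very mild fibrosis away from the central veins only in mice with both Alb-DreERT2 and the reporter. It speculates that the toxin receptor leaked past the loxP stop in these mice. The part of such leakage in the values below was not tested. There was 1 library per genotype, and the number of mice behind each is not stated. No value below has a replicate check: each difference is one between 2 libraries, and genotype, animal, time of isolation and library preparation cannot be told apart. Whether the libraries were made on the same day is not stated.

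Depth was 193746596 UMIs (unique molecular identifiers, 1 per captured transcript) over 11149 barcodes in p16-LRTD, against 162219167 UMIs over 8806 barcodes in p16-Alb-LRTD. After the quality limits of the study, 9004 and 7416 barcodes remained, with median depths of 17177 and 18273 UMIs. A total of 95 barcode sequences occurred in both libraries, of which 22 were kept in each. The stellate rule took 7852 and 6621 cells, the endothelial rule 430 and 283, and the Kupffer rule 283 and 178. In each class, markers that the rule did not use were higher than in the other classes. The stellate check markers, such as Dcn and Des, summed to 27005 and 29719 UMIs per 1000000 UMIs of the class (CPM) in stellate cells, the endothelial ones, such as Pecam1 and Cdh5, to 7709 and 6815 CPM in endothelial cells, and the Kupffer ones, such as Adgre1 and C1qa, to 11532 and 14235 CPM in Kupffer cells. Few cells lay close to a threshold. Within 20% above it were 23 and 15 stellate, 0 and 1 endothelial and 4 and 0 Kupffer cells in p16-LRTD and p16-Alb-LRTD. Within 20% below it were 27 and 19, 6 and 0, and 13 and 7 barcodes. Median mitochondrial shares of the stellate cells were 2.47% and 2.14%, and their median ribosomal protein shares 9.87% and 11.1%.

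Since heat shock factor 1 binds repeats of GAA and TTC, the 250 bases before each start site were searched for GAANNTTC and TTCNNGAA, each of which reads the same on both strands, and for their extension by another unit, GAANNTTCNNGAA or TTCNNGAANNTTC, which contains both shorter ones. RefSeq windows on GRCm38.p6 were given for 7 of the 10 genes, and Hspa8, Hsp90aa1 and Hsp90ab1 were not searched. Of 32851 such windows over all genes, 4218 (12.8%) held a shorter match and 153 (0.466%) a longer one, so that a single shorter match is frequent. The genes with a match are shown, since they include those whose levels differed most (Hspa1b, Hsph1) and least (Hspe1) between the stellate cells of the libraries, with 20 bases on either side and the match in capitals. They describe letters in the window and show no binding.
Hspa1a, chr17:34972233-34972280, minus strand: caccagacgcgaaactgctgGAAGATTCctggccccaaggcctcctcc
Hspa1b, chr17:34959315-34959362, minus strand: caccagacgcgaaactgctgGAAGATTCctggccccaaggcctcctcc
Hsph1, chr5:149636342-149636389, minus strand: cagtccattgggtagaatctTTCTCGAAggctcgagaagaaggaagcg
Hspb1, chr5:135887782-135887849, plus strand: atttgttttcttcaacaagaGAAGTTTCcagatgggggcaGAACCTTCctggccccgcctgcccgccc
Hspe1, chr1:55088039-55088096, plus strand: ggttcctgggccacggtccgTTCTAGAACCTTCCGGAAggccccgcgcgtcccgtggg
The stretches of Hspa1a and Hspa1b were identical, and 247 of the 250 bases before their start sites were the same. Both genes had their match 104 bases before the start. Hspb1 had matches 117 and 97 bases before its start, and Hsph1 had 1 match, 33 bases before the first of its 2 listed start sites and 54 before the other. Hspe1 and Hspd1 lie head to head on chromosome 1. The 300-base windows of Hspe1 and of the start site listed last for Hspd1 share 285 bases. These 2 windows therefore share 1 array, which held 3 shorter matches that form 2 longer ones. It began 89 bases before the Hspe1 start and 144 before that Hspd1 start. The start site listed first for Hspd1 and both start sites listed for Dnajb1 had no match in their windows. Dnajb1 had a log2 ratio of 0.93 in stellate cells. By the gene spans given below, which come from GENCODE and not RefSeq, the Hsph1 match lies inside Hsph1 and the shared array inside Hspd1.

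Hspa1a and Hspa1b encode the stress-inducible HSP70 and lie next to each other on chromosome 17, Hspa1a at 34969190 to 34972156 and Hspa1b at 34956436 to 34959238 (GRCm38, minus strand). In stellate cells Hspa1a was counted at 22.5 CPM in p16-LRTD (3215 UMIs) and 39.0 CPM in p16-Alb-LRTD (4884 UMIs), a log2 ratio of 0.79 with a 95% interval of 0.73 to 0.86. Hspa1b was counted at 4.63 CPM (661 UMIs) and 15.3 CPM (1914 UMIs), a log2 ratio of 1.72 (1.59 to 1.85). All intervals cover counting error only. Hspa1b had the highest ratio of the 10 genes in stellate cells by value, with an interval that overlapped that of Hsph1. Each transcript is counted once at its 3′ end, so levels are not scaled by length, and on that scale Hspa1a was the more counted of the pair in stellate cells of both libraries.

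Endothelial cells of p16-LRTD held few UMIs of the pair. Hspa1a was counted at 2.60 CPM (16 UMIs) and 19.1 CPM (76 UMIs), a log2 ratio of 2.88 (2.08 to 3.75), and Hspa1b at 4.06 CPM (25 UMIs) and 32.4 CPM (129 UMIs), a log2 ratio of 3.00 (2.37 to 3.68). These values moved with the choice of barcodes: Hspa1b was at 2.06 with no filter on barcodes and at 2.02 with a mitochondrial limit of 10%, and Hspa1a ran from 2.27 to 3.47 over the alternatives. In Kupffer cells Hspa1a was counted at 34.1 and 92.3 CPM, a log2 ratio of 1.44 (1.19 to 1.68), and Hspa1b at 7.40 and 50.7 CPM, a log2 ratio of 2.78 (2.31 to 3.28). Kupffer cells of both libraries held more Hspa1a than Hspa1b. Endothelial cells of p16-Alb-LRTD held more Hspa1b, whereas in those of p16-LRTD, with 25 and 16 UMIs, the intervals of the pair overlapped. The 2 messages are close copies with an identity of 85.5% over the aligned transcripts, but of 52.8% over their last 300 bases, the end that this assay reads. Reads that fit both may still have been assigned to 1 or lost, and the summed pair is therefore given too. It was counted at 27.2 and 54.3 CPM in stellate, 6.66 and 51.5 CPM in endothelial and 41.5 and 143 CPM in Kupffer cells, log2 ratios of 1.0, 2.95 and 1.78.

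Hsph1, the HSP110 that recycles HSP70, lies at 149614287 to 149636376 on chromosome 5 (minus strand). It was counted at 20.6 and 63.9 CPM in stellate cells, a log2 ratio of 1.63 (1.57 to 1.69). In endothelial cells it was counted at 27.6 and 69.3 CPM (1.33, 1.05 to 1.61), and in Kupffer cells at 30.1 and 59.9 CPM (0.99, 0.71 to 1.27). Between classes of p16-LRTD, Hsph1 was lower in stellate than in Kupffer cells by a log2 difference of 0.55 (0.32 to 0.76) and than in endothelial cells by 0.42 (0.19 to 0.65), whereas in p16-Alb-LRTD the intervals of these differences held 0.

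Hspa8, the constitutive HSP70 that also drives clathrin uncoating and chaperone-mediated autophagy, lies at 40800984 to 40810087 on chromosome 9 (plus strand). It was counted at 522 and 942 CPM in stellate cells, a log2 ratio of 0.85 (0.84 to 0.86). It was counted at 558 and 940 CPM in endothelial cells (0.75, 0.68 to 0.82) and at 903 and 1482 CPM in Kupffer cells (0.71, 0.66 to 0.77). With Hsp90ab1, Hspa8 was the most counted of the 10 genes in every class, and its ratio was the one that varied least among the classes.

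Dnajb1, the HSP40 most closely tied to heat shock, lies at 83608193 to 83612653 on chromosome 8 (plus strand). It was counted at 27.6 and 52.8 CPM in stellate cells, a log2 ratio of 0.93 (0.88 to 0.99). In endothelial cells it was counted at 32.2 and 53.0 CPM (0.72, 0.43 to 1.01), and in Kupffer cells at 19.2 and 34.7 CPM (0.85, 0.50 to 1.22). In each class its ratio was past 1.5-fold, and the 3 intervals overlapped. With each cell thinned at random to 5000 UMIs it was short of 1.5-fold in endothelial cells (0.54) and in Kupffer cells (0.43).

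The cytosolic HSP90 genes, Hsp90aa1, the inducible form (chromosome 12, 110690605 to 110702728, minus strand), and Hsp90ab1, the constitutive form (chromosome 17, 45567775 to 45573271, minus strand), had smaller ratios. Hsp90aa1 was counted at 211 and 354 CPM in stellate cells, a log2 ratio of 0.75 (0.73 to 0.77), at 170 and 191 CPM in endothelial cells (0.17, 0.03 to 0.31), and at 286 and 396 CPM in Kupffer cells (0.47, 0.37 to 0.56). Without the 1 endothelial barcode of each library with the most Hsp90aa1 UMIs, which held 40 and 49, the endothelial ratio was 0.13 and its interval, -0.01 to 0.27, held 0. Other alternatives raised the endothelial ratio of Hsp90aa1, to 0.52 with barcodes of more than 1 class kept and to 0.32 with cells thinned to 5000 UMIs. Hsp90ab1 was counted at 1027 and 1373 CPM in stellate cells (0.42, 0.41 to 0.43), at 955 and 1060 CPM in endothelial cells (0.15, 0.09 to 0.21), and at 1102 and 1299 CPM in Kupffer cells (0.24, 0.19 to 0.29). The inducible form had the higher ratio in stellate and Kupffer cells. In endothelial cells the intervals of the 2 forms overlapped, and their order turned under some alternatives, as with doubled marker thresholds (Hsp90aa1 0.10, Hsp90ab1 0.16). For both forms the stellate interval lay above those of the other classes.

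Hspb1 (HSP25), a small heat shock protein that also binds actin, lies at 135887919 to 135889563 on chromosome 5 (plus strand). In stellate cells it was counted at 73.0 and 116.5 CPM, a log2 ratio of 0.67 (0.64 to 0.71). In Kupffer cells it was counted at 14.0 CPM in p16-LRTD (83 UMIs) and 1.56 CPM in p16-Alb-LRTD (7 UMIs), a log2 ratio of -3.16 (-4.52 to -2.05). A single p16-LRTD barcode held 65 of those 83 UMIs, and it also held 144 UMIs of Dcn and 17 of Wt1, mesenchymal genes of which the Kupffer cells of that library had medians of 4 and 0. Without the top barcode of each library the Kupffer ratio was -1.18 with an interval of -2.80 to 0.22, so that the difference rested on 1 barcode. In endothelial cells Hspb1 was counted at 29.9 CPM (184 UMIs) and 30.4 CPM (121 UMIs), a log2 ratio of 0.02 (-0.32 to 0.36). Here too 1 p16-LRTD barcode held 75 of the 184 UMIs, with 170 UMIs of Dcn and 14 of Wt1 against medians of 2 and 0. Without the top barcodes, endothelial Hspb1 was at 17.8 and 29.5 CPM, a log2 ratio of 0.73 (0.34 to 1.12).

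Hspd1 (HSP60) and Hspe1 (HSP10) form the folding chamber of the mitochondrial matrix and its lid. They lie at 55077835 to 55088243 (minus strand) and 55088132 to 55091307 (plus strand) on chromosome 1. In stellate cells Hspd1 was counted at 102 and 129 CPM, a log2 ratio of 0.34 (0.31 to 0.38), and Hspe1 at 183 and 205 CPM, a log2 ratio of 0.16 (0.14 to 0.19), the lowest of the 10 genes there. In endothelial cells both were lower in p16-Alb-LRTD. Hspd1 was counted at 110 and 79.3 CPM (-0.48, -0.68 to -0.28) and Hspe1 at 165 and 106 CPM (-0.63, -0.80 to -0.47). In Kupffer cells Hspd1 was counted at 107 and 119 CPM (0.16, -0.01 to 0.33) and Hspe1 at 206 and 195 CPM (-0.08, -0.20 to 0.05), and both intervals held 0. When barcodes meeting the rules of more than 1 class were kept, the endothelial ratios were closer to 0, at -0.18 and -0.24. Scaled by the median of ratios over genes, endothelial Hspe1 was at -0.53, short of 1.5-fold.

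**Figure D1:**
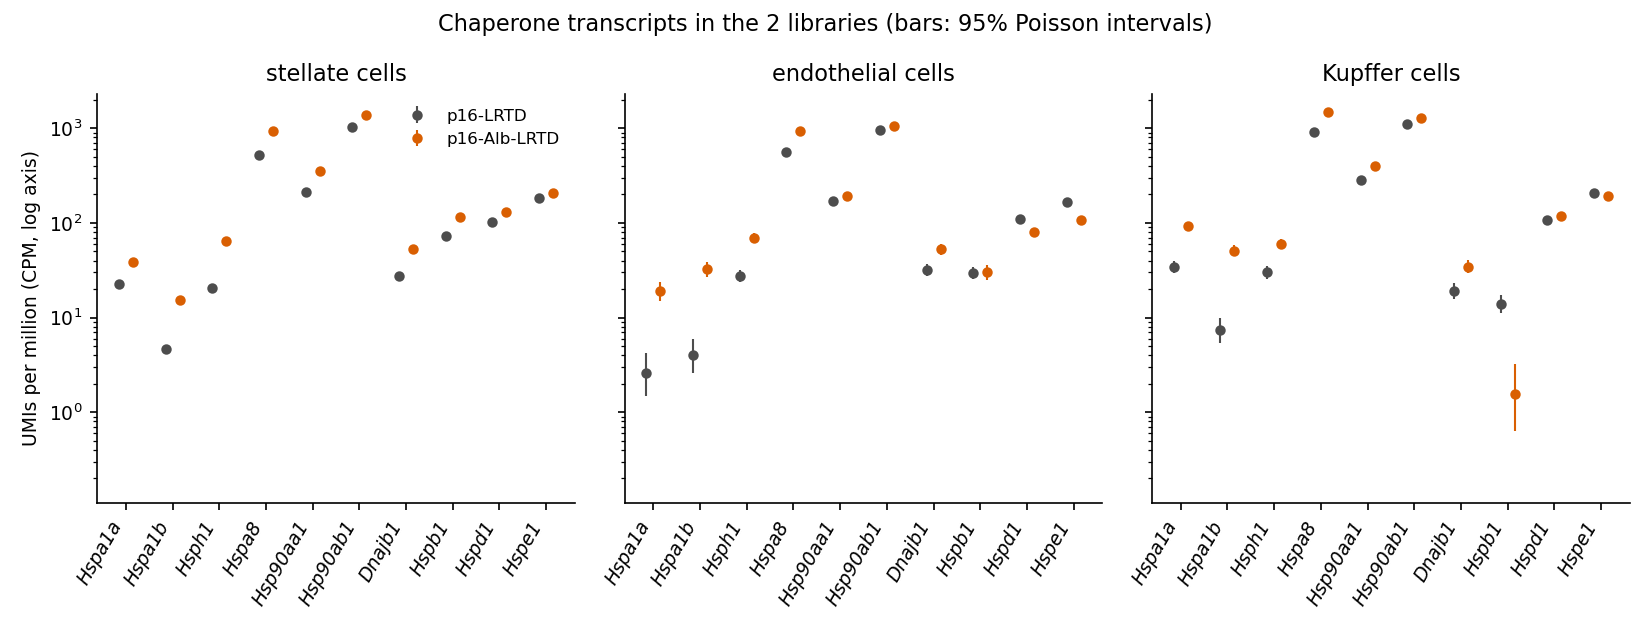
Levels of the 10 chaperone genes (CPM, log axis) in the p16-LRTD (grey) and p16-Alb-LRTD (orange) libraries, in stellate, endothelial and Kupffer cells, with 95% Poisson intervals for counting error (most are smaller than the points). In stellate cells each orange point lies above its grey one, from 4.63 and 15.3 CPM for Hspa1b to 1027 and 1373 CPM for Hsp90ab1, whereas endothelial Hspd1 and Hspe1 and Kupffer Hspb1 and Hspe1 lie the other way.

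Taken as a list in stellate cells, all 10 genes had a ratio above 1 and 7 passed 1.5-fold, beside 3.03% of the 10179 genes with at least 5 CPM that were that much higher and 3.05% that were that much lower in p16-Alb-LRTD. The median log2 ratio of the 10 genes was 0.77, and that of all genes -0.05. In endothelial cells 5 genes were at least 1.5-fold higher (all genes, 6.44%) and 1, Hspe1, at least 1.5-fold lower (all genes, 13.5%), with medians of 0.44 for the 10 and -0.10 for all genes. In Kupffer cells 5 were at least 1.5-fold higher (all genes, 5.21%) and 1, Hspb1, at least 1.5-fold lower (all genes, 6.83%), with medians of 0.59 and -0.06. In Kupffer cells markers of other cells also differed: collagen and activation genes summed to 157 and 47.2 CPM, the stellate check markers to 370 and 335 CPM and the endothelial ones to 476 and 676 CPM. Median ribosomal protein shares of these cells were 8.08% and 6.97%. The part of RNA from other cells in the Kupffer differences was not tested. The minimum of 5 CPM is set on the average of both libraries. All 10 genes met it in each class, but stellate Hspa1b, endothelial Hspa1a and Hspa1b and Kupffer Hspb1 were under 5 CPM in 1 library and met it only through the other, so that these genes had to differ to be counted. As the genes were selected on this ratio, nothing about the list is read from these shares. Hspa1a, Hspa1b, Hsph1, Hspa8 and Dnajb1 were the 5 past 1.5-fold in both of the smaller classes, and they and Hsp90aa1 and Hspb1 were the 7 in stellate cells. The 10 genes together made up 2193 and 3291 CPM in stellate cells, a log2 ratio of 0.59 (0.58 to 0.59), 2055 and 2581 CPM in endothelial cells (0.33, 0.29 to 0.37) and 2708 and 3729 CPM in Kupffer cells (0.46, 0.43 to 0.49). Most of this sum was Hspa8 and Hsp90ab1, so that it says little of the rarer genes with the highest ratios.

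**Figure D2:**
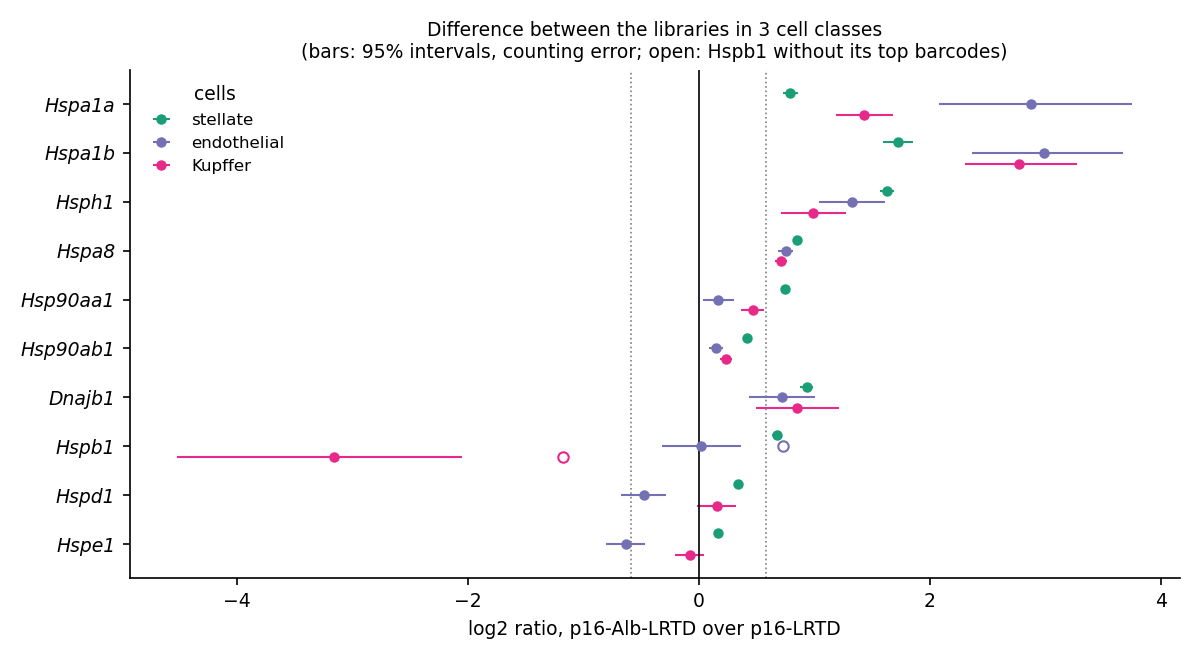
Log2 ratio of p16-Alb-LRTD over p16-LRTD for each chaperone gene in stellate, endothelial and Kupffer cells, with 95% intervals for counting error, 0 as a solid line and 1.5-fold either way as dotted lines. Open points show Hspb1 without the top barcode of each library, where the Kupffer value moves from -3.16 to -1.18 and the endothelial value from 0.02 to 0.73.

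Shares of cells were compared after each cell was thinned at random to 5000 UMIs, which left out 16 and 7 stellate, 12 and 0 endothelial and 5 and 1 Kupffer cells of lower depth. None of the 3 classes is known to lack these genes, so no background share from free RNA could be given, and a share counts cells with a UMI and not cells that express the gene. The part of free RNA in the shares was not tested. Median depths before thinning were 17024.5 and 18136 UMIs in stellate cells and 19514 and 25101.5 in Kupffer cells. Among stellate cells, the share with at least 1 Hspa1a UMI was 7.57% in p16-LRTD (95% Clopper-Pearson interval 6.99 to 8.18) and 14.0% in p16-Alb-LRTD (13.2 to 14.9), and that with Hspa1b 1.94% (1.65 to 2.27) and 6.62% (6.03 to 7.25). Without thinning these shares were 17.8% and 31.2%, and 5.64% and 19.2%. Hsph1 was found in 10.1% (9.41 to 10.8) and 26.9% (25.8 to 28.0), or 28.6% and 63.5% without thinning. At this depth Hspa1a, Hspa1b and Hsph1 were thus found in a minority of stellate cells, while Hspa8 was found in 90.2% and 97.9% and Hsp90ab1 in 98.6% and 99.5% of stellate cells. Among Kupffer cells, Hspa1a was found in 12.6% (8.93 to 17.1) and 32.2% (25.4 to 39.6), and Hspa1b in 2.88% (1.25 to 5.59) and 14.1% (9.35 to 20.1).

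The summed UMIs of the 10 genes per thinned stellate cell had a median of 10 in p16-LRTD, with the 10th to 90th percentile from 6 to 16, and a median of 16 in p16-Alb-LRTD, from 10 to 24. Every one of these percentiles was higher in p16-Alb-LRTD, and the standard deviations over cells were 4.05 and 5.94. Endothelial cells had medians of 9 and 13, and Kupffer cells of 12 and 17. Only 2 and 1 thinned stellate cells held no UMI of any of the 10 genes.

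**Figure D3:**
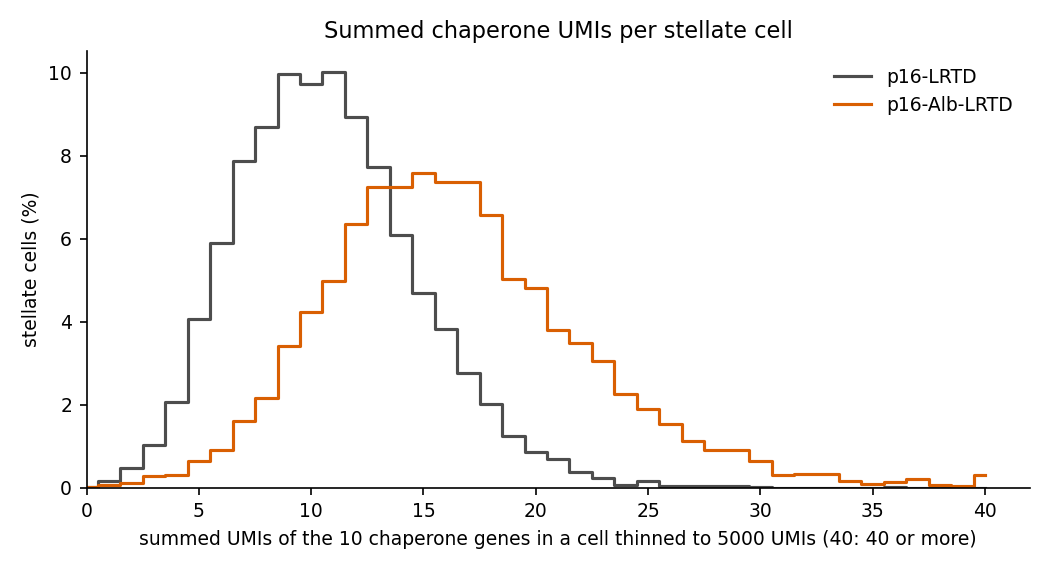
Share of stellate cells (%) by the summed UMIs of the 10 chaperone genes in a cell thinned to 5000 UMIs, with 40 standing for 40 or more, in p16-LRTD (grey) and p16-Alb-LRTD (orange). The grey curve has its median at 10 UMIs and the orange one at 16, and both have 1 broad peak.

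Stellate cells were clustered without the chaperone, stress and glucocorticoid genes, and 5 clusters held at least 100 cells in each library. They are numbered and carry no names: cluster 0 was led by Galnt14 and Egfem1, cluster 1 by Grid1 and Inmt, cluster 2 by Notch3 and Clstn2, cluster 3 by Pcolce and Aes, and cluster 4 by Wt1 and Pex5l. The log2 ratio of the summed chaperones was 0.65 in cluster 0, 0.48 in cluster 1, 0.74 in cluster 2, 0.58 in cluster 3 and 0.42 in cluster 4. All 10 genes had a ratio above 1 in each of these 5 clusters. From cluster 0 to cluster 4, 7, 6, 7, 7 and 4 of them were at least 1.5-fold higher. The share of all genes was not counted by cluster, so nothing about the list is read from these counts. The interval held 0 for Hspa1a in cluster 4 alone, where it was counted at 38.1 and 41.7 CPM, a log2 ratio of 0.13.

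The genes differed in how far their ratio varied over the clusters. Hsp90aa1 varied little, from 0.75 in cluster 1 to 0.90 in cluster 3. Hspa1b varied most, from 2.58 and 14.9 CPM in cluster 0, a log2 ratio of 2.54, to 7.69 and 11.96 CPM in cluster 4, a log2 ratio of 0.64. Hspb1 was at 45.3 and 99.1 CPM in cluster 0 (1.13) and at 165 and 191 CPM in cluster 4 (0.21). For Hspa1a, Hspa1b, Hsph1, Hspa8, Hsp90ab1, Dnajb1 and Hspb1 the lowest ratio was that of cluster 4, whereas for Hspd1 and Hspe1 cluster 4 had the highest. In p16-LRTD, cluster 4 had the highest level of Hspa1a, Hspa1b, Hsph1 and Hspb1 of the 5.

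**Figure D4:**
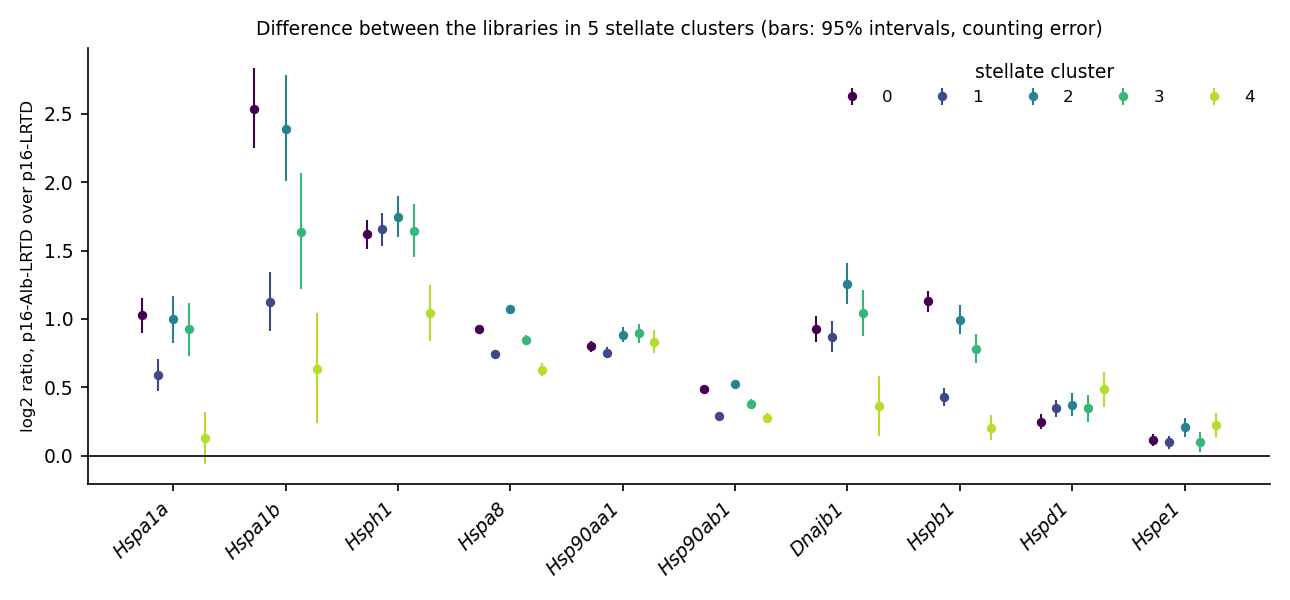
Log2 ratio of p16-Alb-LRTD over p16-LRTD for each chaperone gene in the 5 stellate clusters with at least 100 cells per library, with 95% intervals for counting error. Every point lies above 0, and the values of Hspa1b spread from 0.64 in cluster 4 to 2.54 in cluster 0.

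Among the smaller clusters, 5 and 6 had unequal cell numbers. Cluster 5, led by Top2a and Cenpf, held 211 and 21 cells with summed chaperones at 2665 and 4310 CPM, and cluster 6, led by Cxcl9 and Cxcl2, held 48 and 138 cells at 3058 and 5126 CPM. Cluster 6 had the highest Hspa1b level in p16-Alb-LRTD, 49.8 CPM. When both libraries were given the same pooled shares of the clusters, the stellate sum had a log2 ratio of 0.59. The stellate ratio of Hsp90aa1, 0.75 over all cells, was 0.80 with those shares. It was 0.83 without cluster 5, in which Hsp90aa1 was counted at 518 and 776 CPM.

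The mitochondrial share of a cell differed between the libraries, and the comparison was repeated within bins of it. From the bin of 0 to 1.5% (588 and 765 stellate cells) through 1.5 to 2%, 2 to 2.5% and 2.5 to 3.5% to that of 3.5 to 5% (682 and 279 cells), the log2 ratio of the summed chaperones was 0.61, 0.63, 0.58, 0.54 and 0.51. All 10 genes had a ratio above 1 in the first 4 bins and 9 in the last. In the same order of bins, 6, 7, 7, 7 and 5 genes were at least 1.5-fold higher. The share of all genes was not counted by bin, so nothing about the list is read from these counts.

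The counts in the lists of other genes that follow stand beside 3.03% of all genes at least 1.5-fold higher and 3.05% at least 1.5-fold lower in stellate cells. Of 17 HSP70, HSP40 and HSP110 partners with at least 5 CPM in stellate cells, 2 were at least 1.5-fold higher and 0 lower, with a median log2 ratio of 0.14. They were Dnaja1, another HSP40, at 238 and 494 CPM (1.05), and Hspa4l, another HSP110, at 17.7 and 30.1 CPM (0.76). Bag3, a nucleotide exchange factor that is itself a heat shock gene, was at 59.5 and 71.8 CPM (0.27), and Stub1, a ubiquitin ligase that works on HSP70 clients, had the lowest ratio (-0.19). Of 11 HSP90 co-chaperones, 2 were at least 1.5-fold higher and 0 lower, with a median of 0.17: Fkbp4, which links HSP90 to steroid receptors, at 55.5 and 89.5 CPM (0.69), and Chordc1 at 46.6 and 71.0 CPM (0.61). Pih1d1 had the lowest ratio of them (-0.23). Of 3 other small heat shock proteins above the minimum, none was past 1.5-fold, with values from -0.21 for Hspb2 to 0.07 for Hspb8.

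The 13 analysed subunits of the chaperonin CCT and of prefoldin, which fold actin and tubulin, had a median log2 ratio of 0.01 in stellate cells, with 0 past 1.5-fold either way and values from -0.17 for Pfdn4 to 0.14 for Cct3. The 10 other mitochondrial chaperones and proteases had a median of 0.00, among them Hspa9, the mitochondrial HSP70, at 92.4 and 94.1 CPM (0.03). Their highest ratio was that of Lonp1, a protease of the matrix (0.21), and their lowest that of Hscb, a co-chaperone of iron-sulfur cluster assembly, at 14.9 and 10.3 CPM (-0.52, -0.62 to -0.42). In endothelial cells, however, 3 of those 10 were at least 1.5-fold lower and 0 higher, with a median of -0.43 and Hspa9 at 168 and 95.7 CPM (-0.81), beside 13.5% of all genes in that class that were that much lower. The CCT and prefoldin subunits had an endothelial median of -0.36, and 25 proteasome subunits one of -0.34. Of the proteasome subunits 3 were at least 1.5-fold lower, a share near that of all genes. In that class collagen and activation genes summed to 683 and 48.0 CPM, the stellate check markers to 548 and 443 CPM, and ribosomal protein genes had median shares of 6.63% and 6.10%. The part of mesenchymal RNA in the endothelial differences was not tested.

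Chaperones of the endoplasmic reticulum (ER), which fold secreted proteins and are run by the unfolded protein response, were at least 1.5-fold higher for 6 of 22 in stellate cells, with 0 lower and a median of 0.19. Of the 22, 16 had a ratio above 1. Herpud1, an ER stress gene of protein degradation, was at 58.8 and 170 CPM (1.54), and Hspa5 (BiP), the HSP70 of the ER, at 542 and 853 CPM (0.65). Serpinh1 (HSP47), the collagen chaperone and also a heat shock gene, was at 933 and 842 CPM (-0.15), and P4hb, a subunit of the collagen prolyl hydroxylase, had the lowest ratio (-0.35). The 7 fibrillar collagen and activation genes were lower, 6 of them by at least 1.5-fold, with a median of -1.52 and values from -1.95 for Col1a1, at 1950 and 504 CPM, to -0.51 for Tagln. Herpud1 and Hspa5 were also higher in endothelial cells (1.47 and 1.08) and in Kupffer cells (0.98 and 0.61).

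Among the regulators, Hsf1, the factor that turns heat shock genes on, was at 22.3 and 24.1 CPM in stellate cells (0.12, 0.04 to 0.19), and its activity is not set by its transcript. Of 6 heat shock factors and regulators above the minimum, only Hsf5, at 5.36 and 11.05 CPM (1.04), was past 1.5-fold, and Hsbp1, which binds Hsf1, had the lowest ratio (-0.20). Of 12 other genes often raised with heat or other stress, 2 were at least 1.5-fold higher and 0 lower, with a median of 0.00. Hmox1, the oxidative stress gene, was at 17.3 and 14.9 CPM (-0.21), Rbm3, a cold-inducible RNA-binding protein, had the lowest ratio (-0.39) and Gadd45b the highest (0.89). The 25 proteasome subunits had a median of -0.13 in stellate cells, with 0 past 1.5-fold and values from -0.31 for Psmb3 to 0.01 for Psmd11.

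Outside the folding machinery, immediate early genes, which respond within minutes to growth factors, to stress and to tissue dissociation, were at least 1.5-fold higher for 8 of 18 in stellate cells (all genes, 3.03%), with 0 lower and a median of 0.56. Fos was at 1347 and 2261 CPM (0.75) and Nr4a1 at 43.7 and 117 CPM (1.42), while Ier3 had the lowest ratio (0.03). In endothelial cells 13 of 18 were at least 1.5-fold higher (all genes, 6.44%) and 1 lower (all genes, 13.5%), with a median of 0.88. In Kupffer cells 5 were higher (all genes, 5.21%) and 0 lower (all genes, 6.83%), with a median of 0.37. Of the glucocorticoid receptor gene and its targets, 12 genes in all, 7 were at least 1.5-fold higher in stellate cells (median 0.66), among them Fkbp5, an HSP90 co-chaperone that such hormones induce, at 64.3 and 256 CPM (1.995), and Zbtb16 at 59.5 and 647 CPM (3.44). In endothelial cells 6 of 12 were at least 1.5-fold higher and in Kupffer cells 7 of 12, with medians of 0.63 and 0.81, beside the same shares of all genes. The receptor gene itself, Nr3c1, had the lowest ratio of the 12 in stellate cells, at 212 and 213 CPM (0.01). Hepatocyte transcripts were scarce in stellate cells, where only 2 of 10 reached the minimum: Alb at 12.95 and 7.46 CPM (-0.80) and Trf at 61.0 and 76.2 CPM (0.32). The part of immediate early genes, glucocorticoid targets and hepatocyte RNA in the chaperone difference was not tested.

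**Figure D5:**
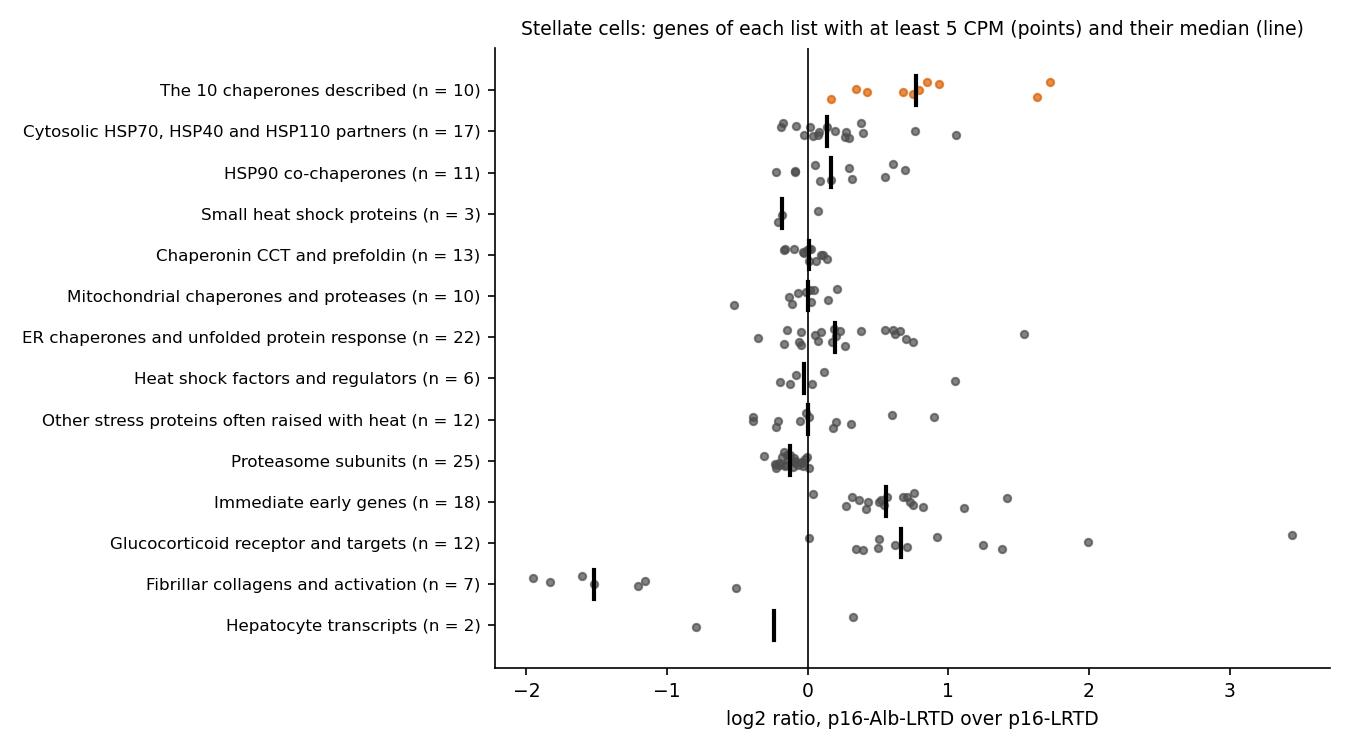
Log2 ratio of p16-Alb-LRTD over p16-LRTD in stellate cells for the 10 chaperone genes (orange) and the genes of 13 other lists (grey) with at least 5 CPM, each point a gene and each line the median of its list. The 10 genes have a median of 0.77, immediate early genes and the glucocorticoid receptor with its targets have medians of 0.56 and 0.66, CCT and mitochondrial chaperones have medians of 0.01 and 0.00, and collagen and activation genes have a median of -1.52.

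Across single stellate cells the 10 genes were only loosely tied. Pearson correlations of log-scaled counts over the 45 pairs had a median of 0.03 among the 7852 p16-LRTD cells and of 0.12 among the 6621 p16-Alb-LRTD cells. The highest was that of Hspa8 with Hsp90ab1, 0.26 and 0.41, and Hspa1a with Hspa1b had 0.15 and 0.14. Cells of a library share depth and composition, and counts of the rarer genes are sparse, so that these values are descriptions. The sum of the 10 genes correlated with the ribosomal protein share at 0.45 and 0.26, with the mitochondrial share at -0.04 and -0.13, with the summed immediate early genes at 0.13 and 0.09 and with the glucocorticoid receptor and its targets at 0.12 and 0.08. With the ER chaperones it had 0.17 and 0.35, and with the collagen and activation genes 0.21 and 0.00.

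Among the genes most alike to the sum of the 10 across stellate cells, by the lower of the correlations in the 2 libraries over 3452 genes with at least 50 CPM, were Tmsb10 (0.37), Tpt1 (0.37), Rps16 (0.35), Ptma (0.34), Rpl21 (0.34), Rpl13 (0.34), Rplp1 (0.34), Fth1 (0.33) and Rps10 (0.33). Of those named, 5 encode ribosomal proteins. None of them was 1.5-fold apart between the libraries, and their log2 ratios ran from -0.20 for Fth1 to 0.19 for Ptma.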

How the data were processed

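The study's methods give the 10x 3′ kit, and the deposited values are unscaled UMI counts that the authors obtained with CellRanger 7.0.1 on the mm10 reference. The submitters' processing notes name the same tool and build. The rest was computed here with Python 3.11.15, NumPy 2.4.6, SciPy 1.17.1, R 4.3.3 and Seurat 5.3.0. After the study's limits, barcodes with over 5% mitochondrial UMIs, under 2000 or over 7000 genes, or over 50000 UMIs were left out. No doublet caller was run: the upper limits and the removal of barcodes that met the rules of more than 1 class (245 in p16-LRTD and 221 in p16-Alb-LRTD) stand in for it.

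A class was set by summed markers per 10000 UMIs: stellate, at least 15 of Lrat, Ecm1, Hgf and Reln; endothelial, at least 8 of Kdr, Stab2 and Ptprb; Kupffer, at least 8 of Clec4f, Cd5l, Vsig4 and Csf1r. All cells of a class were then pooled per library and their counts given as CPM. Levels carry exact Poisson intervals (95%), ratios exact intervals conditional on the summed count, and shares of cells Clopper-Pearson limits. None of these holds the spread between mice or preparations. Those of levels and ratios treat pooled UMIs as independent, so that they leave out the spread between cells too. With 1 library per genotype there was no test, and a gene is counted as past the threshold at a ratio of at least 1.5 among genes with at least 5 CPM on average. Stellate clusters come from reciprocal PCA (30 dimensions, 2000 variable genes without the chaperone, stress and glucocorticoid lists, resolution 0.5). Ratio intervals were run on simulated counts drawn with Poisson error, which is the error they assume. This checks the computation and does not show that the intervals hold for these data.

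The 10 genes, the lists and the comparisons were chosen with earlier results of these data known. Named are the 10 genes, the highest and the lowest ratio of each list in stellate cells and a few fixed genes, while Hspa4l, Chordc1 and the barcodes rich in Hspb1 or Hsp90aa1 were singled out after their values were seen. Of the 10 genes most alike to the summed chaperones, 1 is not reported here. Genes were placed by identifier on GENCODE vM21 (GRCm38), and promoter windows are those of RefSeq. Alternatives were other limits, thresholds, scalings, depths and cluster shares.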

Additional observations from a re-analysis of the deposited data

Results flagged for a closer look

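Of the 10 chaperone genes, 3 stood in opposite directions in different cell classes, with both counting intervals away from 0. Hspd1 had a log2 ratio of -0.478 in endothelial cells and 0.343 in stellate cells, and Hspe1 had -0.634 and 0.165. Hspb1 had -3.16 in Kupffer cells and 0.675 in stellate cells, but the Kupffer value rested on 1 p16-LRTD barcode with 65 of 83 UMIs and was -1.18 (-2.80 to 0.22) without the top barcodes. With 1 library per genotype, none of these differences between classes was tested.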

How the results depend on the processing

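No paired analysis was possible with 1 library per genotype, and no test was made. The number of chaperone genes at least 1.5-fold higher stayed at 7 in stellate and 5 in Kupffer cells under every alternative and ran from 4 to 6 in endothelial cells. The 5 Kupffer genes were not the same when cells were thinned to 5000 UMIs: Dnajb1 (0.4289) was no longer past 1.5-fold and Hsp90aa1 (0.6049) was. No value of a chaperone gene whose interval lay away from 0 changed sign, whereas endothelial Hspb1 and Kupffer Hspe1, whose intervals held 0, did under some of them. Of 38 alternative values of the summed chaperones, 20 stayed within the counting interval, and the 18 that left it had the same direction. The cause was not tested. The log2 ratio of the sum in stellate cells was 0.5747 with no filter on barcodes, 0.5757 with no upper limits, 0.5921 with doubled marker thresholds, 0.6334 scaled by the median of ratios, 0.5921 scaled without mitochondrial and ribosomal genes, 0.6018 as a mean over cells, 0.6094 with cells thinned to 5000 UMIs, 0.5941 in cells of 10000 to 30000 UMIs and 0.5961 without cluster 5. In endothelial cells it was 0.4734 with barcodes of more than 1 class kept, 0.4298 by the median of ratios and 0.3861 thinned. In Kupffer cells it was 0.3995 with no filter, 0.4297 with no upper limits, 0.5191 by the median of ratios, 0.5325 as a mean over cells, 0.5425 thinned and 0.5277 at 10000 to 30000 UMIs. Scaling by the median of ratios takes off the median of all genes, -0.05 in stellate, -0.10 in endothelial and -0.06 in Kupffer cells. Leaving out cluster 5, the shared barcodes and the barcodes richest in a gene were alternatives chosen after seeing the data. Depth limits the rarest values: endothelial Hspa1a rested on 16 UMIs in p16-LRTD, and its ratio ran from 2.27 to 3.47 over the alternatives. Endothelial Hspa1b, on 25 UMIs there, went from 2.995 to 2.064 with no filter and 2.022 with a mitochondrial limit of 10%. With 1 library per genotype there was none to leave out in turn.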

Other observations

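Barcodes that met no class rule, 194 in p16-LRTD and 113 in p16-Alb-LRTD, differed from the classes in their chaperones. Hspb1 was counted at 1116 and 613 CPM there, a log2 ratio of -0.86 (-0.95 to -0.78), and Hspa1a at 51.3 and 38.3 CPM (-0.42, -0.77 to -0.08). Hspa8 was at 901 and 1385 CPM (0.62, 0.56 to 0.69) and Hsph1 at 35.1 and 64.2 CPM (0.87, 0.55 to 1.19), in the direction of the classes. These barcodes also held Dcn at 6191 and 5038 CPM, Krt19 at 112 and 59.7 CPM, Alb at 510 and 189 CPM, Upk3b at 95.6 and 75.1 CPM and Cd3e at 8.06 and 20.6 CPM, which are genes of several kinds of cells. Kinds were not told apart among them.

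Barcodes that met the rule of more than 1 class, 245 and 221, held Hspa1b at 2.99 and 30.7 CPM, a log2 ratio of 3.36 (2.66 to 4.14), and Hsph1 at 23.2 and 73.1 CPM (1.65, 1.38 to 1.94). Hspd1 and Hspe1 had ratios of 0.12 (-0.05 to 0.28) and -0.02 (-0.15 to 0.11) there, with intervals that held 0.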
